A study of Mus musculus with 6 samples.

Results

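Targeting a gene can also disturb the genes beside it, so the 10 genes listed as neighbours of *Tgm2* on mouse chromosome 2 (*Blcap*, *Nnat*, *Ctnnbl1*, *Tti1*, *Rprd1b*, *Lbp*, *Ralgapb*, *Actr5*, *Ppp1r16b* and *Dhx35*) were followed in tumors grown in mice without *Tgm2* and in wild-type (WT) mice. They were chosen by name for their position, and all 10 were present among the 20076 genes of the deposited table. Bulk RNA came from 3 primary tumors of WT and 3 of *Tgm2* knockout mice. A mouse line of ovarian cancer, ID8 *Trp53*-/- *Brca1*-/-, had been placed under the bursa of the ovary 6 weeks earlier, and the mice used in the study were 6 to 10 weeks old. The WT mice were C57BL/6 animals, and both stocks were bred in the authors' own facility. The *Tgm2* deletion is in the host, whereas the injected cancer cells were the same in both groups and carry *Trp53* and *Brca1* deletions made with CRISPR-Cas9. The exons removed from *Tgm2*, the strain of the embryonic stem cells and the number of backcrosses are not given in the sources used here, and the WT mice are not described as littermates. Gene values carry no allele, so a passenger stretch of another strain around the deletion and the deletion itself cannot be told apart.

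A targeted allele is made in embryonic stem cells of one strain, and the DNA beside it is inherited together with it through later crosses. Linked genes can therefore differ between knockout and control mice through strain variants, and an inserted cassette or a lost regulatory element can change the transcription of adjacent genes. The neighbours of *Tgm2* do unrelated work. Some serve RNA polymerase II, chromatin and splicing, others signaling, and *Nnat* is an imprinted gene that is transcribed from the paternal copy and lies within an intron of *Blcap*.

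Positions are those of GENCODE M21 on GRCm38, the build named in the submitters' processing notes. *Tgm2* covers chr2:158116402-158146436 on the minus strand. *Blcap* (chr2:157556362-157571274, minus), *Nnat* (chr2:157560078-157562522, plus), *Ctnnbl1* (chr2:157737401-157891614, plus) and *Tti1* (chr2:157981803-158028433, minus) lie at lower coordinates, 545 kb, 554 kb, 225 kb and 88.0 kb from it. *Rprd1b* (chr2:158028497-158132297, plus) overlaps the *Tgm2* gene body by 15896 bases. *Lbp* (chr2:158306493-158332852), *Ralgapb* (chr2:158409848-158499253), *Actr5* (chr2:158624888-158639211), *Ppp1r16b* (chr2:158665398-158766334) and *Dhx35* (chr2:158794807-158858214), all on the plus strand, follow at 160 kb, 263 kb, 478 kb, 519 kb and 648 kb.

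Where gene models touch, reads can be shared. Of the 8 annotated *Rprd1b* transcripts, 1 (Rprd1b-207) ends in an exon at chr2:158131139-158132297 that covers 370 bases of *Tgm2* exons on the other strand. The library kit's strand setting is not given in the sources used here, so reads from these bases could be counted for either gene. *Nnat* shares 0 exon bases with *Blcap* and lies wholly within 1 intron in 3 of the 6 *Blcap* transcripts. *Tti1* and *Rprd1b* are separated by 63 bases and are transcribed away from each other. Their start windows, taken from RefSeq on GRCm38.p6 from 250 bases before to 50 bases after the start, are printed because they are the nearest starts to *Tgm2* in the listed set. Each is written 5′ to 3′ on its own strand, and capitals mark the 162 bases that the windows have in common. Of these, only the 63 bases between the genes sit before both, and the others lie inside 1 gene or the other.
Rprd1b, chr2:158028247-158028546, plus strand: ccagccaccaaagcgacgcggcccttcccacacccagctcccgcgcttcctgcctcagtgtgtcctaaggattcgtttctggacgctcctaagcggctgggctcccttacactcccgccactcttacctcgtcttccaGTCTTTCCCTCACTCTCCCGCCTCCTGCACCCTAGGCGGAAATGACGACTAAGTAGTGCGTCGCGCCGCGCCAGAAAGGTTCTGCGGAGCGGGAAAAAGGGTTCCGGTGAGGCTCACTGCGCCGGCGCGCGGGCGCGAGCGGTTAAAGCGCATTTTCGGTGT
Tti1, chr2:158028385-158028684, minus strand: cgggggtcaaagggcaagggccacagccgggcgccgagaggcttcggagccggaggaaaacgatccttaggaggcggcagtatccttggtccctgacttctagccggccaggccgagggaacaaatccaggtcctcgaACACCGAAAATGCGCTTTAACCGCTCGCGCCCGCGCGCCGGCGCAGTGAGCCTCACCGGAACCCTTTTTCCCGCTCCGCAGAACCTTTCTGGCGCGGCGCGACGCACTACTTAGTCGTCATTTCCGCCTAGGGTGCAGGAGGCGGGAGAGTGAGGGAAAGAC

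The knocked-out gene was examined first. *Tgm2*, which encodes transglutaminase 2, an enzyme that crosslinks proteins, reached 14978, 12155 and 13180 normalized counts in the WT tumors. In the 3 knockout tumors, in the same order of numbers, it was at 5853, 6071 and 8157. The highest knockout tumor lay well under the lowest WT tumor, and the remaining transcripts can come from the injected cells. The log2 fold change of -1.02 had a standard error of 0.22 (adjusted p = 0.391, limma with Benjamini-Hochberg adjustment), which did not pass adjustment, and the two-sided exact permutation test gave p = 0.1, the smallest that 3 tumors against 3 allow. In bulk tissue, fewer cells of a type and less RNA per cell cannot be told apart. The columns of the table sum to between 32316613 and 37717165 normalized counts per tumor, and 1 read is worth between 0.938 and 1.09 of them, so the neighbour genes, with 94.8 or more in each tumor, rest on many reads in each tumor. Knockout tumor 1 stood apart in markers of the ovary itself (47194 normalized counts summed over 15 genes, against 7948 to 18716 in the other 5 tumors), so values without it are given for the genes that differed most.

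None of the 10 neighbour genes passed the adjusted threshold of 0.05 (0 of 10 by limma, where 0.102% of the 19667 genes tested did). At an unadjusted p under 0.05, 2 of 10 were called, *Nnat* and *Ppp1r16b*, both with higher values in the knockout tumors, beside 5.78% of all genes tested in either direction and 3.4% in this one. The groups did not overlap in 3 of 10 genes, beside 10.5% of all genes, namely in these 2 genes, which were higher (beside 5.18% of all genes), and in *Dhx35*, which was lower (beside 5.33%). With 10 genes, a share of 20% or 30% stands for a few genes. The median log2 fold change of the 10 was 0.20, where that of all genes tested was -0.03. For the other 8 genes the log2 fold change lay between -0.50 (*Dhx35*) and 0.54 (*Lbp*), and the 95% interval held 0. For 6 of the 10 the whole interval lay between -1 and 1, and for 9 of 10 it lay above -1. The exception in the downward direction was *Dhx35*, whose interval reached -1.18. These intervals describe the whole tumor, in which the injected cells carry their own copies of the neighbour genes. They do not bound a change in the host cells alone. *Tgm2*, deleted in the host, had an interval from -1.52 to -0.51.

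**Figure D1:**
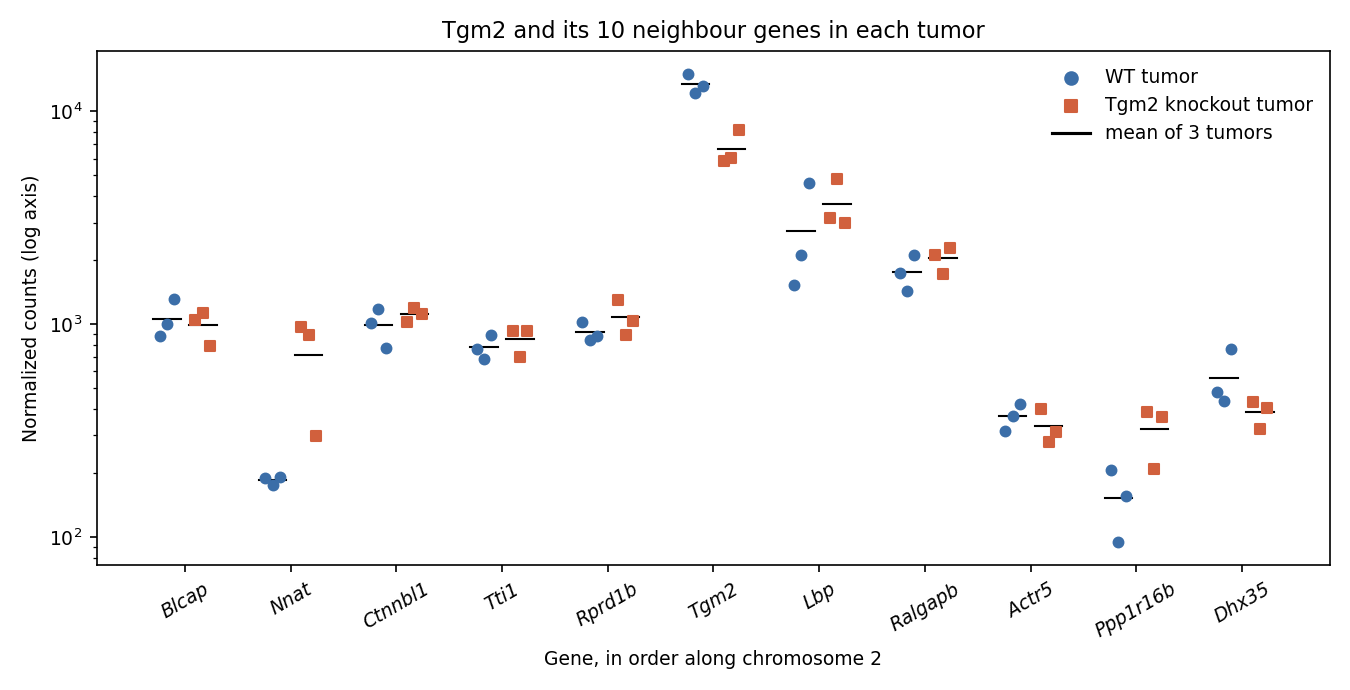
Normalized counts (log axis) of *Tgm2* and its 10 neighbour genes in each of 3 WT tumors (circles) and 3 *Tgm2* knockout tumors (squares), with the mean of each group as a line and the genes in order along chromosome 2. The groups are apart for *Tgm2* and *Nnat* and, narrowly, for *Ppp1r16b* and *Dhx35*, and they overlap for the other 7 genes.

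The genes that serve transcription, chromatin and the stability of kinases include *Rprd1b* and *Tti1*, the nearest to *Tgm2* of the 10. *Rprd1b*, which binds the tail of RNA polymerase II and overlaps *Tgm2*, had 1027, 839 and 884 normalized counts in the WT and 1305, 891 and 1039 in the knockout tumors. Its groups overlapped, and only knockout tumor 1 lay above the WT range by more than a few percent. The log2 fold change was 0.22 with a 95% interval from -0.29 to 0.73 (adjusted p = 0.909 from limma), in a direction opposite to that of *Tgm2*. In the fits without 1 tumor it ranged from 0.08 (without knockout tumor 1) to 0.35 (without knockout tumor 2). With white adipocyte markers as a covariate it was 0.80 (standard error 0.35, unadjusted p = 0.0544, adjusted p = 0.53 from limma). *Tti1*, a scaffold of the TTT complex that folds large kinases such as mTOR, had 767, 684 and 890 in the WT and 924, 700 and 934 in the knockout tumors. Its log2 fold change was 0.12 with an interval from -0.39 to 0.64, and both genes of the shared start window were highest in knockout tumors 1 and 3 and lowest in WT tumor 2. *Actr5*, an actin-related subunit of the INO80 chromatin remodeler, had 315, 370 and 422 in the WT and 400, 281 and 312 in the knockout tumors, with a log2 fold change of -0.16 (interval -0.81 to 0.48).

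Both splicing genes were also expressed in all tumors. *Ctnnbl1*, which takes part in the Prp19 complex of the spliceosome, had 1012, 1173 and 774 normalized counts in the WT and 1024, 1191 and 1117 in the knockout tumors. WT tumor 3 was lowest and the other tumors overlapped, and the log2 fold change was 0.19 (interval -0.32 to 0.70). *Dhx35*, a DEAH-box RNA helicase of the late spliceosome and the farthest of the 10 genes from *Tgm2*, had 478, 435 and 762 in the WT and 431, 320 and 404 in the knockout tumors. The groups were barely apart, at WT tumor 2 (435.3) and knockout tumor 1 (431.4). The difference on the log2 scale was -0.50 with a standard error of 0.30 (limma, adjusted p = 0.891), and without WT tumor 3, which held the highest value, it was -0.26. With the mean log2 value of white adipocyte markers as a covariate its direction turned, at 0.04 (standard error 0.55).

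The signaling genes of the set are *Ralgapb* and *Ppp1r16b*. *Ralgapb*, the shared beta subunit of the complexes that switch off Ral GTPases, had 1736, 1432 and 2109 normalized counts in the WT and 2122, 1714 and 2273 in the knockout tumors, with a log2 fold change of 0.22 (interval -0.28 to 0.72). The difference between these genes was not tested. *Ppp1r16b*, a membrane-bound regulator of protein phosphatase 1 known from endothelial cells and lymphocytes, had 207, 94.8 and 156 in the WT and 388, 208 and 364 in the knockout tumors. Every knockout tumor lay above every WT tumor, but knockout tumor 2 (208.3) lay barely above WT tumor 1 (207.1). The log2 fold change was 1.08 (standard error 0.42, interval 0.12 to 2.05), with an unadjusted p of 0.0317 (limma, adjusted p = 0.819), and the exact permutation test gave p = 0.1. The unadjusted p was 0.104 without WT tumor 2, 0.0999 without knockout tumor 1 and 0.0981 without knockout tumor 3, while the log2 fold change stayed between 0.78 and 1.37 in all 6 fits that left out 1 tumor.

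*Lbp* encodes the secreted protein that hands bacterial lipopolysaccharide to CD14 and is made in liver, fat and inflamed epithelia. It had 1532, 2119 and 4599 normalized counts in the WT and 3156, 4820 and 2994 in the knockout tumors. WT tumor 3 lay inside the knockout range and the other WT tumors below it. The log2 fold change was 0.54 (interval -0.36 to 1.44, adjusted p = 0.896 from limma). Without WT tumor 3 it was 0.99 with an unadjusted p of 0.0084 (adjusted p = 0.917 from limma). In the other fits without 1 tumor it lay between 0.19 (without WT tumor 1) and 0.66 (without knockout tumor 3), so the value depends on single tumors. With white adipocyte markers as a covariate the log2 fold change was -0.03 (standard error 0.78).

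*Nnat* had the highest log2 fold change of the 10 genes. It encodes neuronatin, a small membrane protein of the endoplasmic reticulum that is best known from the developing brain, endocrine cells and fat. It had 190, 176 and 190 normalized counts in the WT, and 969, 889 and 299 in the knockout tumors, in the order of their numbers. The WT tumors were close together (185 ± 8.23, SD, n = 3), the knockout tumors were spread out (719 ± 366, SD, n = 3), and the lowest knockout tumor was still above all WT tumors. The fold change was 3.43, or 1.78 on the log2 scale (standard error 0.45, interval 0.74 to 2.81), with an unadjusted p of 0.00399, rank 137 of the genes tested (limma, adjusted p = 0.566). In the 6 fits without 1 tumor the log2 fold change ranged from 1.47 (without knockout tumor 1) to 2.32 (without knockout tumor 3), and the smallest adjusted p among them was 0.0857 from limma. *Blcap*, whose intron holds *Nnat* and whose protein is a small membrane protein first described in bladder cancer, had 882, 998 and 1308 in the WT and 1047, 1128 and 790 in the knockout tumors. Its groups overlapped (log2 fold change -0.10, interval -0.65 to 0.45). The log2 value of *Nnat* minus that of *Blcap* was -2.21, -2.50 and -2.77 in the WT and -0.11, -0.34 and -1.40 in the knockout tumors, so the nested gene and its host did not keep a fixed ratio.

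The start windows of the 3 genes whose groups did not overlap are printed for comparison, with CG dinucleotides, the sites of DNA methylation, in capitals. They come from RefSeq on GRCm38.p6 and are written 5′ to 3′ on the plus strand, and *Ppp1r16b* has 2 annotated starts. Windows were found for 8 of the 10 genes, and none was listed for *Lbp* and *Actr5*.
Nnat, chr2:157559828-157560127: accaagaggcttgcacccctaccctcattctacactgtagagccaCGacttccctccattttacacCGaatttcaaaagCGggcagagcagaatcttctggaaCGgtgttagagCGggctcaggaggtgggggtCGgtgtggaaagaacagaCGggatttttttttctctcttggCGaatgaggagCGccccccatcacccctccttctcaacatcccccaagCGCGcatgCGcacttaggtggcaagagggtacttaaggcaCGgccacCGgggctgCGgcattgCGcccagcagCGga
Ppp1r16b, chr2:158666483-158666782: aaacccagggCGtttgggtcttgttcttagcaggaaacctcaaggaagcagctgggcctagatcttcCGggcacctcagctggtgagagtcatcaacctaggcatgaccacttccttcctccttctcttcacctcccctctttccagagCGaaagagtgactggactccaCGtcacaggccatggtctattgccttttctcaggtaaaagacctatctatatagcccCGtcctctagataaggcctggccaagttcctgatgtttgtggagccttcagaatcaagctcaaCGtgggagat
Ppp1r16b, chr2:158666885-158667184: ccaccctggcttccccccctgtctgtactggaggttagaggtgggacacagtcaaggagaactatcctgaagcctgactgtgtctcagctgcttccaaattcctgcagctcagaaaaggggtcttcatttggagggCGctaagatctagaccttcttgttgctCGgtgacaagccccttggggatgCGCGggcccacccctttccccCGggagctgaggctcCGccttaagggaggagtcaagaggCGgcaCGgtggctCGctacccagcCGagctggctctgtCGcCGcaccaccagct
Dhx35, chr2:158794557-158794856: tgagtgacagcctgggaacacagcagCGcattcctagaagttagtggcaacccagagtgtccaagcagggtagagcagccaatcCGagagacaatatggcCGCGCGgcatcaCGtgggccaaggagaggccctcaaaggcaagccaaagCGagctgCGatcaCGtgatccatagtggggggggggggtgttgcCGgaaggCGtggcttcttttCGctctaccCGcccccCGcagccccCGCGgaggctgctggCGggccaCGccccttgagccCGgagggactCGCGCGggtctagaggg
The *Nnat* window held 17 CG dinucleotides, as many as that of *Blcap*. The *Ppp1r16b* windows held 6 and 12, that of *Dhx35* held 22, and those of *Tti1* and *Rprd1b* held 32 and 31, where the median of all 32851 windows was 7. Motifs were searched on both strands. TATAAA was in 0 of the 10 windows of these genes and in 13.6% of all windows, CCAAT in 2 (*Ctnnbl1* and *Dhx35*) and in 37.4%, GGGCGG in 4 (*Ctnnbl1*, *Dhx35* and both of *Ralgapb*) and in 35.7%, and CACGTG in 1 (*Dhx35*, at 2 positions) and in 7.15%. The windows of *Nnat* and *Ppp1r16b* held none of these 4 motifs.

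Levels were compared between genes per kb of transcript, using the median length of the protein-coding transcripts of each gene. Over the 6 tumors *Lbp* was the highest of the 10 genes, with 2420 ± 991 normalized counts per kb (SD, n = 6). *Nnat* followed with 536 ± 442 and spanned 208 to 1150 per kb, and its place came from the knockout tumors, where its mean was 852 per kb and second in the order, while in the WT tumors it was 220 per kb and below *Blcap*, *Ctnnbl1*, *Rprd1b* and *Ralgapb*. *Blcap* (499 ± 89.1), *Ctnnbl1* (429 ± 62.7), *Rprd1b* (322 ± 55.3), *Ralgapb* (266 ± 44.9) and *Tti1* (217 ± 30.1) came next, and each of these neighbours in the order had overlapping ranges. *Dhx35* (147 ± 47.1) and *Actr5* (146 ± 23.2) did not differ beyond their spread. *Ppp1r16b* was the lowest with 37.0 ± 18.2 per kb, and its highest tumor (60.7) was below the lowest tumor of every other gene. For scale, *Tgm2* had 2800 ± 1080 per kb.

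The whole surroundings of *Tgm2* were then read in the same fit. Within 2 Mb on either side, 47 other genes were tested, the 10 listed genes among them, and 0 passed adjustment. At an unadjusted p under 0.05 there were 2 (*Nnat* and *Ppp1r16b*), or 4.26%, beside 5.78% of all genes tested, and the groups did not overlap in 8.51%, beside 10.5%. None of the 37 genes outside the listed set had an unadjusted p under 0.05 (0 by limma also after adjustment), and 22 of them had a log2 fold change above 0. In 1 of the 37, *Dsn1*, a kinetochore gene 1.11 Mb from *Tgm2* that was picked after its values were seen, the groups did not overlap (log2 fold change -0.32, adjusted p = 0.896 from limma). Within 0.5 Mb, 0 of 11 genes had an unadjusted p under 0.05, within 1 Mb 2 of 25 and within 5 Mb 4 of 121 (3.31%). Within 10 Mb the share was 5.38% of 279 genes, and in the rest of chromosome 2 it was 5.12% of 1153. The median size of the log2 fold change, without its sign, was 0.22 within 0.5 Mb, 0.50 within 1 Mb, 0.32 within 2 Mb, 0.28 in the rest of the chromosome and 0.30 over all genes. The window of 1 Mb includes *Gm14279*, *Gm14287* and *Gm14176*, which had few reads and log2 fold changes of -1.15, 0.79 and 0.93. Whether such genes raise the median there was not tested.

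**Figure D2:**
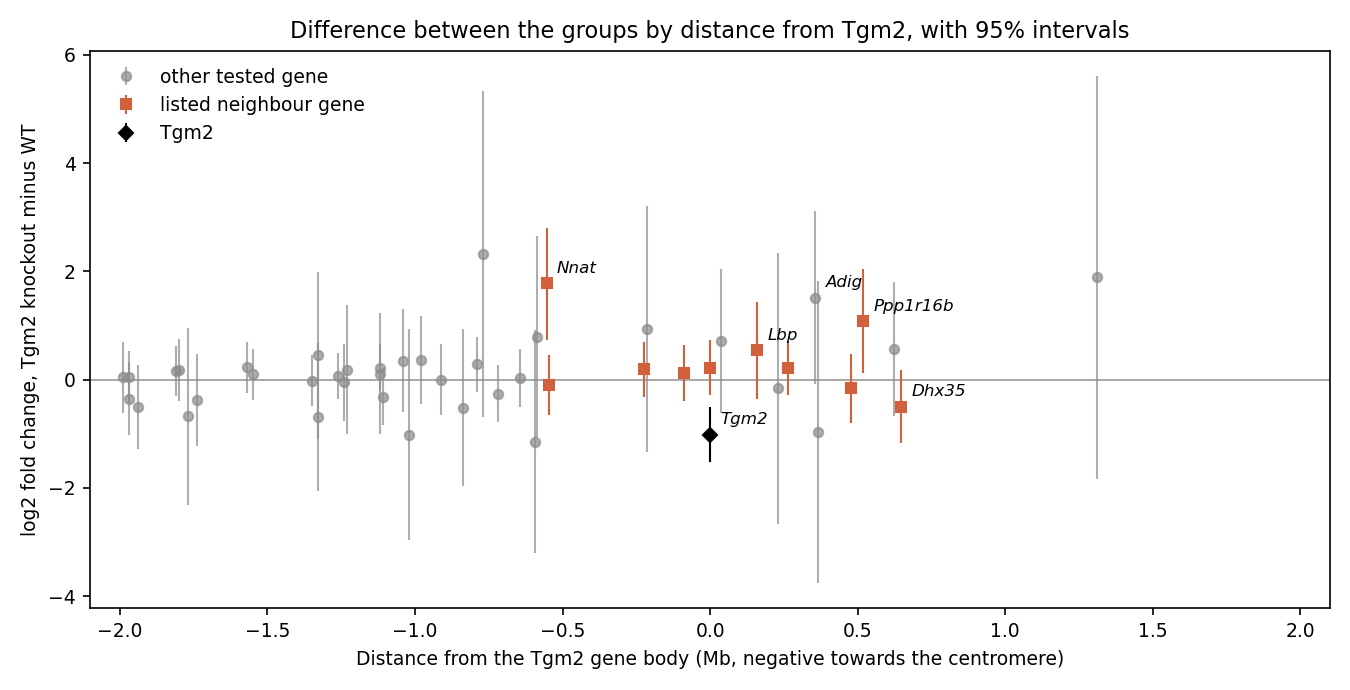
Log2 fold change (*Tgm2* knockout minus WT) with its 95% interval from limma against the distance from the *Tgm2* gene body in Mb, for *Tgm2* (diamond), the 10 listed neighbour genes (squares) and the other 37 genes tested within 2 Mb (grey circles). The intervals of *Tgm2*, *Nnat* and *Ppp1r16b* leave out 0, and those of all other genes shown hold it.

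Among the nearest genes outside the listed set, *D630003M21Rik* lies 36.1 kb from *Tgm2*. It had 70.7, 87.1 and 119 normalized counts in the WT and 236, 63.0 and 219 in the knockout tumors (log2 fold change 0.71, adjusted p = 0.898 from limma). Without knockout tumor 2, the lowest of the 6 tumors, its log2 fold change was 1.33 (unadjusted p = 0.0244, adjusted p = 0.9 from limma). In the other fits without 1 tumor it lay between 0.38 (without knockout tumor 1) and 0.91 (without WT tumor 3). *Adig*, which encodes adipogenin, a protein of fat cells, lies 356 kb from *Tgm2* and had 41.9, 154 and 101 in the WT and 111, 594 and 235 in the knockout tumors. Its groups overlapped, and its log2 fold change was 1.51 (interval -0.09 to 3.11). It was 2.09 without knockout tumor 1 (unadjusted p = 0.0128), 1.92 without WT tumor 2 (unadjusted p = 0.0421), 0.99 without WT tumor 1 and 0.89 without knockout tumor 2. *Snhg11*, a noncoding host gene of small nucleolar RNAs, and *Arhgap40* differed by -0.16 (standard error 1.09) and -0.96 (standard error 1.22) on the log2 scale. In both, WT tumor 3 held the highest value (371 and 274), and for *Snhg11* knockout tumor 1 was also high (285). On the other side, *Src*, a tyrosine kinase gene at 645 kb, had a log2 fold change of 0.03 (interval -0.51 to 0.57), and *Gm14279*, *Gm14287* and *Gm14176* had at most 7.52 normalized counts in any tumor, which is within a few reads of 0.

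Of the 20 genes that passed adjustment in the whole table, 1 lies on chromosome 2, which holds 7.67% of the tested genes with a position. It is *Slpi*, a protease inhibitor gene 6.21 Mb from *Tgm2*, with 515, 367 and 340 normalized counts in the WT and 3607, 5989 and 6720 in the knockout tumors. It was higher by 3.71 on the log2 scale, with a standard error of 0.29 (limma, adjusted p = 0.00376), and its adjusted p was 0.0542 without WT tumor 2, 0.063 without the trend of variance on mean and 0.47 with white adipocyte markers as a covariate. Whether *Slpi* lies in the stretch inherited with the knockout allele was not tested.

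Partners of the neighbour genes were read as lists. The lists of protein phosphatase 1 and of lipopolysaccharide recognition also hold *Ppp1r16b* and *Lbp* themselves. The counts of the lists at an unadjusted p under 0.05 stand beside 5.78% of all genes tested. Of the 11 genes of the TTT complex and its kinases, the 15 of the INO80 complex, the 14 of the Prp19 complex and late spliceosome and the 7 around the Rprd proteins, 0 had an unadjusted p under 0.05 by limma. Their median log2 fold changes were -0.19, -0.05, 0.08 and 0.09, and their most abundant genes *Trrap*, *Mcrs1*, *Prpf19* and *Polr2a* had -0.19, -0.09, 0.09 and 0.11. Of the 11 genes of the Ral pathway, 2 had an unadjusted p under 0.05, in opposite directions. *Ralgapa2*, which encodes an alpha subunit that binds *Ralgapb*'s product, had a log2 fold change of -0.62 with values of 3029, 2222 and 2578 in the WT and 1681, 1541 and 1844 in the knockout tumors (unadjusted p = 0.0121, adjusted p = 0.712 from limma). *Rgl1*, an activator of Ral, had 0.72 (adjusted p = 0.739 from limma), and the median of the list was -0.14. *Ralgapa2* also lies on chromosome 2, 11.6 Mb from *Tgm2*. Of the 8 genes of protein phosphatase 1 and its targeting subunits, *Ppp1r16b* alone had an unadjusted p under 0.05, and *Ppp1ca*, the most abundant, had a log2 fold change of -0.17. Of the 8 tested genes of lipopolysaccharide recognition 0 had an unadjusted p under 0.05 by limma, with a median of 0.10, *Lbp* itself was the most abundant, and *Bpi*, a relative of *Lbp*, was not in the table. The 12 acute phase genes had a median of 0.02, and 2 had an unadjusted p under 0.05. *Orm1* and *Hp*, which encode plasma proteins of the acute phase, had log2 fold changes of 2.68 and 1.2 (adjusted p = 0.649 and 0.859 from limma), and *C3*, the most abundant, had -0.17. In each of these lists 0 genes passed adjustment.

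*Nnat* was also set beside other imprinted genes. Of 31 listed, 25 were tested, and 0 passed adjustment. At an unadjusted p under 0.05, 3 were higher and 1 was lower, beside 3.4% and 2.38% of all genes, and the median log2 fold change was 0.23. The others beside *Nnat* were *Zim1* (1.73, with 16.1, 8.18 and 20.9 normalized counts in the WT and 28.5, 48.4 and 85.8 in the knockout tumors), *Dlk1* (2.22, with overlapping groups) and *Impact* (-0.54). *Gnas*, the most abundant of them, which also lies on chromosome 2, had 0.23. Neither *Zim1* nor *Dlk1* was highest in knockout tumor 1, where *Nnat* was.

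Lists of markers of other cell types were read in the same tumors. *Nnat* and *Adig* are known from fat cells, and *Ppp1r16b* from endothelial cells and lymphocytes, so these lists are given beside them. Of all genes tested, 9309 of 19667 had a log2 fold change above 0, 5.78% had an unadjusted p under 0.05 (3.4% in the higher direction), 10.5% had groups without overlap and 0.102% passed adjustment, and the counts of each list stand beside these. The 25 white adipocyte markers had a median log2 fold change of 1.63. All 25 were above 0, 18 had an unadjusted p under 0.05, 14 had higher values without overlap and 1, *Lep*, passed adjustment. They sum to 68552, 80785 and 55358 normalized counts in the WT and 80336, 282746 and 179391 in the knockout tumors. The most abundant was *Lpl*, with 24.0% of the sum, and *Cidea* alone was at 0 in a tumor. *Nnat* was highest in knockout tumor 1, where these markers were lowest among the knockout tumors. Their mean log2 value was 8.85, 9.53 and 9.01 in the WT and 10.07, 11.68 and 10.76 in the knockout tumors. Every knockout tumor lay above every WT tumor, so a fit with this value as a covariate separates group and covariate poorly. In that fit *Nnat* had a log2 fold change of 1.79 (standard error 0.94, against 0.45 without the covariate, unadjusted p = 0.0968, adjusted p = 0.591 from limma). *Ppp1r16b* had 2.34 (adjusted p = 0.47 from limma) and *Adig* had -1.28 (adjusted p = 0.65 from limma). In the same fit *Lbp* was at -0.03 and *Dhx35* at 0.04, each with its direction turned, *Ctnnbl1* (-0.15) and *Actr5* (0.23) turned as well, *Rprd1b*, *Ralgapb* and *Tti1* were at 0.80, 0.67 and 0.60, and *Tgm2* was at -0.92.

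The 15 markers of granulosa, theca and oocyte cells, the cells of the ovary itself, sum to 18716, 15474 and 7948 normalized counts in the WT and 47194, 11901 and 12778 in the knockout tumors. In this sum knockout tumor 1 alone stood apart, and it was the tumor with the most *Nnat*. In knockout tumor 2, where *Nnat* was nearly as high, the sum lay inside the WT range. Of the 13 tested, 12 had a log2 fold change above 0 and 1, *Oosp1*, had an unadjusted p under 0.05, which is near the share over all genes. Unlike the sum, *Oosp1* was higher in every knockout tumor (101.8, 84.6 and 67.3 normalized counts) than in the WT tumors (8.62, 0 and 7.49). Its log2 fold change was 4.28 (adjusted p = 0.403 from limma). *Star* was the most abundant, with 33.0% of the sum, and *Fshr*, *Cyp19a1*, *Zp1*, *Zp2*, *Zp3* and *Oosp1* were at 0 in at least 1 tumor. The 7 neuroendocrine markers in the table, the class in which *Nnat* is best known, had a median log2 fold change of -0.15, and 0 had an unadjusted p under 0.05 by limma. Their most abundant gene was *Tubb3*, with 65.0% of the sum.

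The 15 T and NK cell markers sum to 2406, 1668 and 1389 in the WT and 2443, 2730 and 4548 in the knockout tumors, with *Trac* as the most abundant (16.3% of the sum), 0 markers at 0 in a tumor, 14 of 15 with a log2 fold change above 0, 2 with an unadjusted p under 0.05, 6 with higher values without overlap and a median of 0.89. The 18 B and plasma cell markers sum to 16789, 18320 and 13662 in the WT and 61343, 83961 and 88946 in the knockout tumors. Of these, *Jchain* gave 63.1% of the sum, 16 had a log2 fold change above 0, 9 had an unadjusted p under 0.05, 12 had higher values without overlap, 3 passed adjustment and the median was 1.01. The 14 endothelial markers, none at 0 in any tumor, sum to 19901, 13671 and 14008 in the WT and 17507, 18584 and 19270 in the knockout tumors, with *Pecam1* as the most abundant (16.0%), 10 with a log2 fold change above 0, 1 with an unadjusted p under 0.05 and a median of 0.38. *Ppp1r16b* was lowest in WT tumor 2, where the endothelial sum was lowest too, but the other tumors did not keep this order. The sum was highest in WT tumor 1, where *Ppp1r16b* lay below every knockout tumor. In knockout tumor 1, where *Ppp1r16b* was highest, the sum was the lowest of the knockout tumors. The T and NK cell sum and the B and plasma cell sum were also lowest of the knockout tumors there, and both were highest in knockout tumor 3. The other lists had medians of 0.46 (leukocytes and macrophages), 0.42 (fibroblasts), -0.32 (ovarian surface and cancer cells) and -0.07 (hepatocytes). The 12 ovarian surface and cancer cell markers sum to 73762, 85519 and 78676 in the WT and 65954, 61561 and 71469 in the knockout tumors. Of them 5 had a log2 fold change above 0, 1 had an unadjusted p under 0.05 by limma and 3 had lower values without overlap. Of the 10 hepatocyte markers, listed because the liver makes *Lbp*, 8 were in the table and 7 were tested. *Alb*, *Serpina1a* and *Fgb* were at 0 in at least 1 tumor, *Trf* was the most abundant with 94.8% of the sum, and both *Trf* and *Ahsg* were above 0 in all tumors. *Ahsg*, which encodes the plasma protein fetuin-A, had a log2 fold change of -0.91 (unadjusted p = 0.0273), and 0 of the 7 passed adjustment by limma. The part of these cell types in the values of *Nnat*, *Ppp1r16b* and *Lbp* was not tested.

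**Figure D3:**
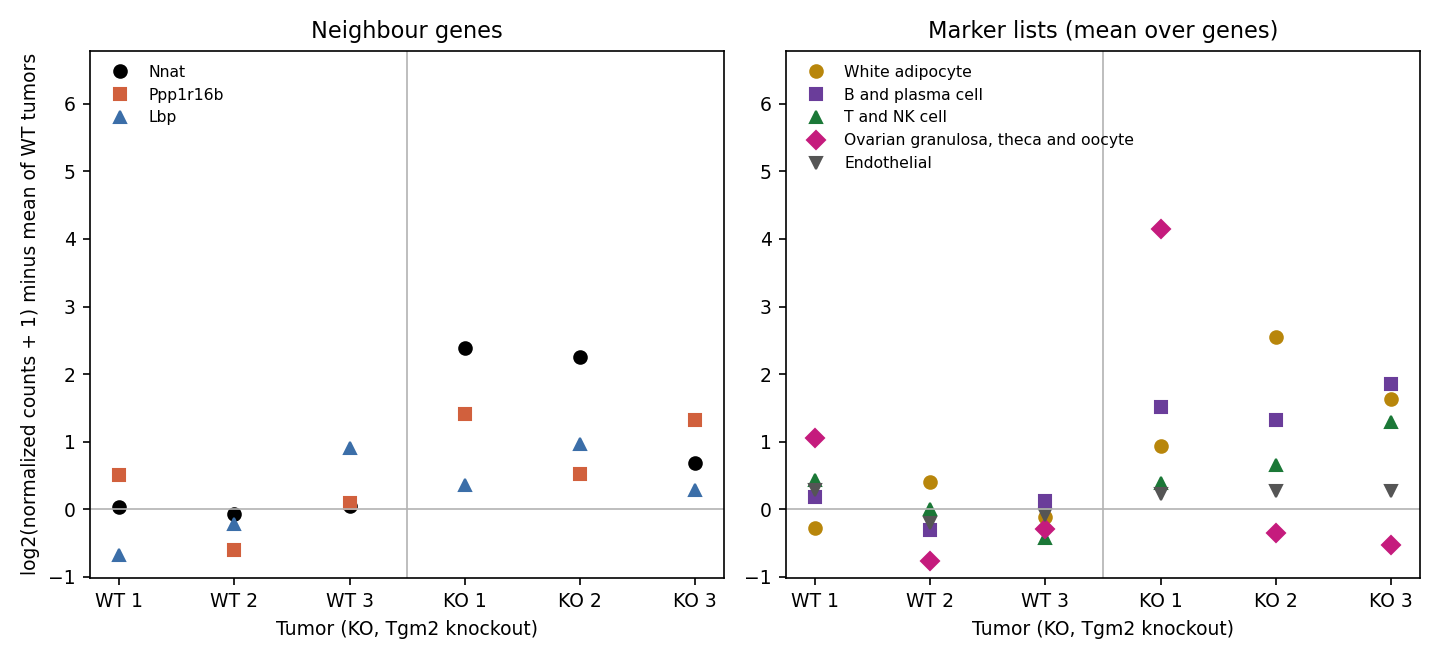
Log2(normalized counts + 1) in each of the 6 tumors, minus the mean of the 3 WT tumors, for *Nnat*, *Ppp1r16b* and *Lbp* (left) and for the mean over the genes of 5 marker lists (right), on the same scale. *Nnat* is highest in knockout tumors 1 and 2, the ovarian markers in knockout tumor 1 only, and the white adipocyte markers in knockout tumor 2.

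The genes with the pattern most like *Nnat* and *Ppp1r16b*, the 2 neighbour genes with the widest spread over the 6 tumors, were named as a description. For *Nnat* they were *Mettl7a2*, *Shisal2a* and *Cfap77*, with Pearson's r of 0.992, 0.990 and 0.986 over 6 tumors. The first 2 had at most 14.1 normalized counts in any tumor, and *Cfap77*, which is known from motile cilia, had 12.9, 13.1 and 9.48 in the WT and 110, 121 and 17.6 in the knockout tumors. For *Ppp1r16b* they included *Svs5* and *Prkce*, with 0.994 and 0.991. *Prkce*, which encodes a protein kinase C, had 741, 434 and 617 in the WT and 1104, 671 and 980 in the knockout tumors, while *Svs5* had at most 12.4. The points share the 6 tumors and the difference between the groups, and 128 genes had an r above 0.9 with *Nnat* and 255 with *Ppp1r16b*.

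**Figure D4:**
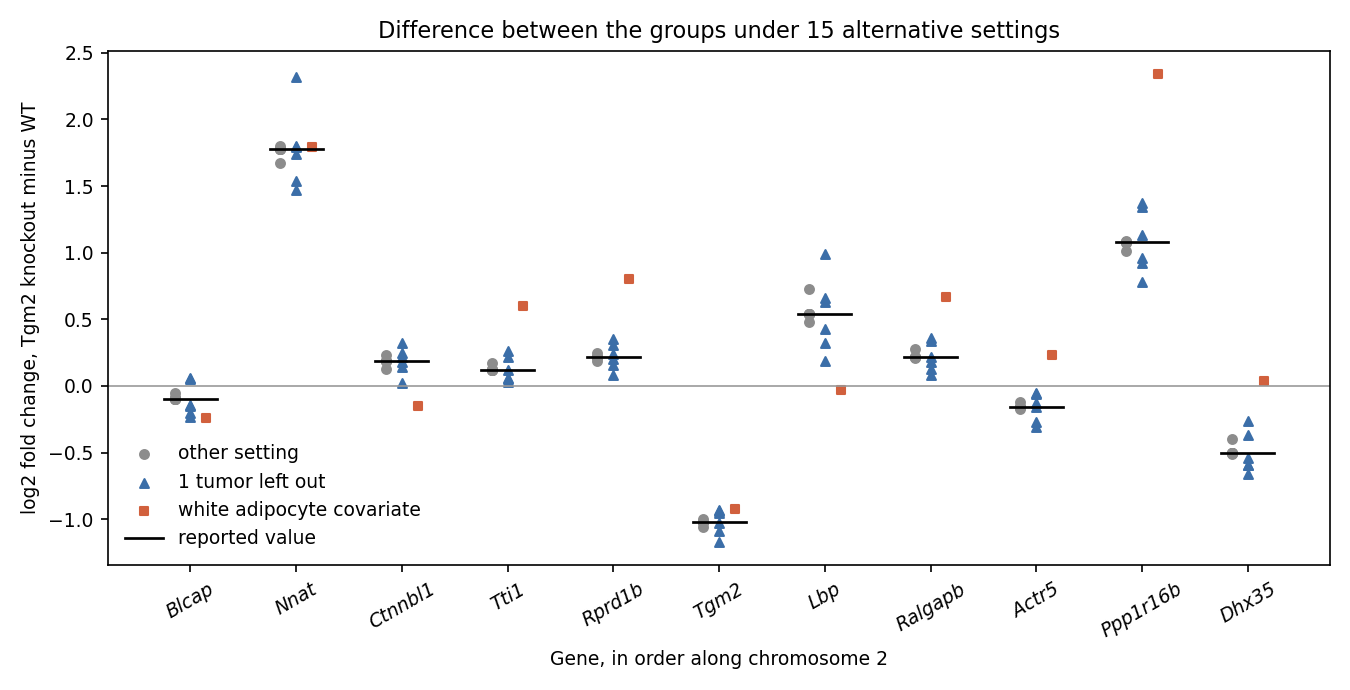
Log2 fold change (*Tgm2* knockout minus WT) of *Tgm2* and its 10 neighbour genes in the reported fit (line), in 6 fits that each left out 1 tumor (triangles), with the white adipocyte markers as a covariate (square) and in 8 other settings (circles). *Nnat* and *Ppp1r16b* stay above 0 and *Tgm2* below 0 throughout, and the values of *Blcap*, *Ctnnbl1*, *Lbp*, *Actr5* and *Dhx35* cross 0.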

How the data were processed

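Total RNA of the tumors was enriched for polyA and sequenced in paired reads by the authors, who quantified transcripts with kallisto (version 0.46.2 and build GRCm38 per the submitters' processing notes), added them up per gene (biomaRt), dropped poorly expressed genes and divided by DESeq2 size factors. The deposited signal is thus in normalized counts. Although it is labelled TPM, its total per tumor is 32316613 to 37717165. The tests had been planned for log2 values, which also fit this unit, and no count model was fitted, because the values are not whole.

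Values were converted to log2(value + 1), which understates changes of low genes, and the 19667 of 20076 genes that reached 1 in 3 or more tumors entered limma 3.58.1 in R 4.3.3 (trend of variance on mean, no covariate, two-sided, Benjamini-Hochberg adjustment over all genes tested). Exact permutation tests used Python 3.11.15 with scipy 1.17.1. The labels give only the mouse genotype and the replicate number of each tumor. In the study the cells were injected on both sides, and the labels do not say whether the tumors of a group came from different mice. The p-values measure the spread between these tumors. Positions were matched by symbol to GENCODE M21 on GRCm38 for 94.8% of genes. Of genes with 1 transcript, between 96.6% and 99.2% of the values of up to 5 reads lay within 0.1 reads of a whole number, which gave the value of 1 read.

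The neighbour genes, the 19 lists of partners and markers and the tests were chosen with earlier results of these data known. Named genes were *Tgm2*, the 10 neighbours, the 4 nearest other tested genes on each side and any within 2 Mb with an unadjusted p under 0.05, the most abundant gene of each list with up to 4 of its genes with an unadjusted p under 0.05, of which the text gives those it needs, and the 3 genes most correlated with the 2 neighbours of widest spread. Some genes that this rule names are not reported here. *Slpi* and *Dsn1* were added after their values were seen. The fit was tested on simulated data, but the outcome is not reported here and is not used for any statement. The alternatives changed the pseudocount (0.1), the filter (none, or at least 10), the scaling, the replicate block, the tumor weights, the variance trend and the covariate, or dropped 1 tumor at a time.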

Additional observations from a re-analysis of the deposited data

How the results depend on the processing

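Over 15 alternative settings, the 10 neighbour genes kept the sign of their log2 fold change in 144 of 150 cases, and 0 cases passed an adjusted p of 0.05 (smallest 0.0857, for *Nnat* without knockout tumor 3). *Tgm2* ranged from -1.17 to -0.92. The white adipocyte covariate reversed *Ctnnbl1* (-0.15), *Lbp* (-0.03), *Actr5* (0.23), *Dhx35* (0.04), *Adig* (-1.28), *Snhg11* (2.30) and *Arhgap40* (0.99), and tumor weights reversed *Snhg11* (0.17). Without 1 tumor, *Blcap* reversed (-0.23 to 0.06), as did *Src* (-0.12 to 0.21), *Snhg11* (-1.13 to 0.92) and *Arhgap40* (-1.88 to 0.50), for *Blcap* without WT tumor 3 or knockout tumor 3. The cause of these reversals was not tested.

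The number of neighbour genes with an unadjusted p under 0.05, 2 in the reported fit, was 1 with the adipocyte covariate and 1 to 3 without 1 tumor, the highest without WT tumor 3. Within 2 Mb of *Tgm2* it was 6 with the covariate (where *D630003M21Rik* was at 2.42, unadjusted p = 0.0368 from limma). It was 3 with the replicate block or tumor weights (*Adig* at unadjusted p = 0.0101 and 0.0443 from limma). Dropping 1 tumor gave 2 to 5, the highest when knockout tumor 2 was dropped. Among all genes, 1137 had such a p in the reported fit, 1169 with the block and 1137 with the weights. When a single tumor was dropped, this number was lowest for WT tumor 3 (893) and highest for WT tumor 1 (1503). For knockout tumor 2 it was 976, fewer than in the reported fit, while the count near *Tgm2* rose. Over all genes, 20 passed adjustment, against 5 with the replicate block, 4 without the variance trend and 0 with the adipocyte covariate (limma, with 1882 genes at an unadjusted p under 0.05), and 2 to 15 without 1 tumor (2 without WT tumor 2, 8 without WT tumor 1, 11 without knockout tumor 2 and 13 without WT tumor 3 or knockout tumor 1). The labels do not say whether the replicate numbers pair the tumors. Same-numbered tumors correlated at -0.1955, 0.2838 and -0.3072 in their deviations from the group means, and differently numbered ones at -0.2312 to 0.3593. With 3 tumors per group these values cannot decide whether the tumors are paired. The block changed no call among the neighbour genes, while *Slpi* had an adjusted p of 0.127 with it (limma). The windows of 0.5 and 1 Mb held 0% and 8% of genes with an unadjusted p under 0.05, where 2 Mb held 4.26%. With 3 tumors per group, the 95% intervals of the neighbour genes leave room for whole-tumor changes of the size they span. They do not bound changes in the host cells alone. The low counts of *Gm14279*, *Gm14287* and *Gm14176* give no usable value.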
